A study of Mus musculus with 6 samples.

Results

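Mouse CD8+ T cells that had been activated over 72 h while exposed to a static magnetic field (SMF) of 0.3 T were compared with fresh unstimulated CD8+ T cells, using 4 of the 6 RNA-Seq libraries of the study, 2 from each group. The cells of all groups came from wild-type C57BL/6 mice that were 8 weeks old and were purified from spleen by negative selection, without a sort. SMF-treated cells grew on wells coated with antibodies to CD3 and CD28, above permanent magnets, unstimulated cells were taken fresh with no culture and no field, and the remaining 2 libraries are control cells given the same 72 h stimulation without magnets. The comparison therefore contains stimulation, culture and the field together. Genes were chosen by level alone, as those averaging 1 FPKM or more across these 4 libraries, which kept 15100 of 54446 genes (27.7%). FPKM counts the fragments mapped to a gene, per unit of its length and of the library's size. Differences are given on the scale log2(FPKM + 1), which understates the change of low genes, as the SMF mean minus the unstimulated mean ± its standard error (SE), with 2 libraries in each group. A gene was called higher or lower when limma's Benjamini-Hochberg adjusted p was at most 0.05 and the groups differed at least 2-fold. No source says that replicate libraries came from separate mice or cultures, so p values measure only the spread between these libraries.

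A naive CD8+ T cell is a small resting cell that circulates between blood and lymphoid organs and makes little RNA and protein. Signals through the T cell receptor and CD28 make it grow, switch to aerobic glycolysis, copy its genome, divide repeatedly and acquire the granules and cytokines of a cytotoxic lymphocyte. In the same period it loses the homing receptors and transcription factors that keep a naive cell at rest.

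The libraries differed in more than their group. Mapped bases amounted to 67.4 and 132 Mb for fresh cells and to 259 and 227 Mb for SMF-treated cells, so the fresh cells were measured at lower depth, and control cells had 64.4 and 172 Mb. A listing at 0 affected 16.6% and 8.49% of tested genes in fresh cells, 12.1% and 11.6% in SMF-treated cells and 22.5% and 11.0% in control cells. The files hold no read counts, so a gene at 0 in both libraries of a group is reported only as listed at 0, with no fold, and where 1 library is at 0 the difference depends on the pseudocount of 1. Folder dates in the file headers, taken here as runs, were June and November of 2017 for unstimulated replicates 1 and 2 and October 2018 for both SMF libraries. Of 3 runs, 0 held libraries of both groups, so group and run cannot be told apart in any value below, and weight belongs to large changes shared by whole pathways. Each control library came from the run of the unstimulated library with the same number, and control values are given beside the SMF values for that reason. The protein-coding share of all FPKM was 49.3% and 49.7% in fresh cells and 69.2% and 68.7% in SMF-treated cells, and antisense genes took 22.2% and 19.5% against 12.3% and 12.8%.

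**Figure D1:**
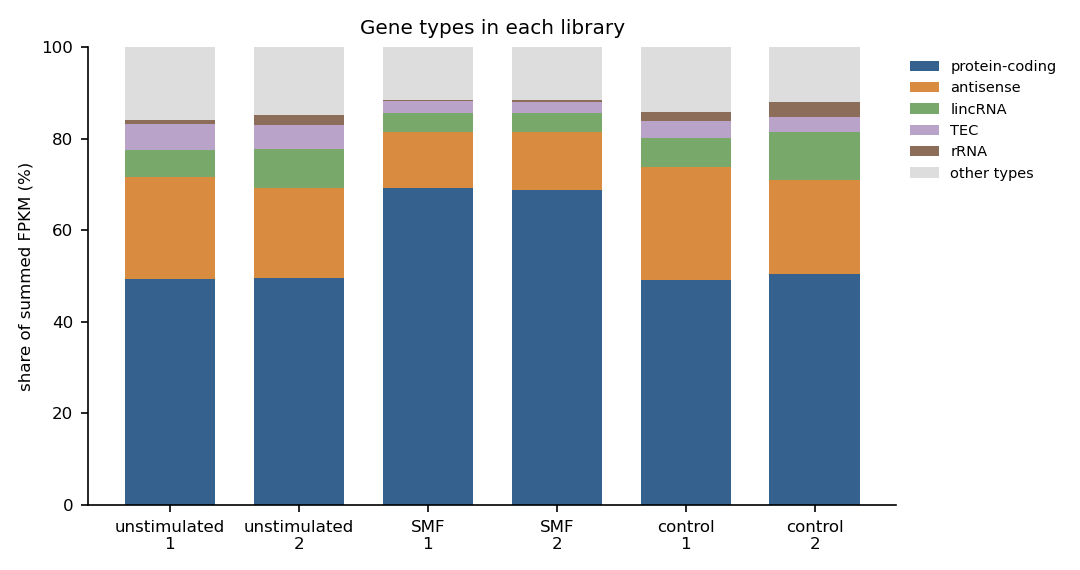
Share of the summed FPKM (vertical axis, %) taken by each GENCODE gene type in each of the 6 libraries (horizontal axis). The protein-coding share is 69.2% and 68.7% in the SMF libraries, above both unstimulated libraries (49.3% and 49.7%) and both control libraries (49.1% and 50.5%).

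Some genes have exons that overlap exons of another gene on the opposite strand, which is called facing here. Values of facing genes are uncertain, because the deposited values put large amounts on antisense models. The antisense gene *Gm11175*, which faces the transcription factor gene *Jund*, was listed at 17816 and 13823 FPKM in the unstimulated libraries, while *Jund* itself had 109.6 and 93.1 FPKM. Facing partners are named beside the genes below, and main counts were repeated on protein-coding genes with several exons and no facing exon.

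Stimulated SMF-treated cells differed from fresh cells across much of the measured transcriptome. In all, 2120 genes (14.0%) were called higher and 1429 (9.46%) lower in SMF-treated cells. These include 270 of the 697 genes listed at 0 in both fresh libraries and 364 of the 1151 listed at 0 in both SMF libraries, which passed the level filter through the other group alone, so such genes are given below as levels with no p value for this comparison. Lists described below without a count of such members had 0 to 2 of them among their calls. Of the 6643 genes tested that were protein-coding with several exons and none facing, 1328 (20%) were higher and 310 (4.67%) lower. The shares of 14.0% and 9.46% are the background for each list count below. For counts over genes with no facing exon the background is 20% and 4.67%. The split between the directions depended on scaling: 59.7% of called genes were higher as deposited, 48.7% with every library shifted to the same median, and 39.7% with the protein-coding sum made equal. The median difference over all genes tested was 0.25, and it was -0.17 under that last scaling. Both SMF libraries lay above both unstimulated libraries for 5975 genes (39.6%) and below them for 4025 (26.7%). Replicates were closer within SMF-treated cells, with 2905 genes at least 2-fold apart, than within unstimulated cells, with 5083. The SMF libraries shared a run, while the unstimulated libraries came from different runs, at depths of 67.4 and 132 Mb. Group, run and depth cannot be told apart in this spread. Between single libraries of the groups, 8621 to 9088 genes were at least 2-fold apart. When either SMF library was left out, 0 genes passed the adjusted p, with a smallest value of 0.0741 without replicate 1 and 0.0715 without replicate 2, while 4144 and 4155 genes reached 0.05 or lower before adjustment. With unstimulated replicate 1 left out 1017 genes were higher and 1072 lower, and with replicate 2 left out 1292 and 1026. Every called gene kept its direction in each of these fits.

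The same 15100 genes were tested in control against unstimulated cells, a comparison that shares the unstimulated libraries. There 647 genes (4.28%) were higher and 604 (4.0%) lower. Between SMF-treated and control cells, tested directly, 3 genes (0.0199%) were higher and 1 (0.00662%) was lower at the adjusted p, and 3121 genes had an unadjusted p value of 0.05 or lower in limma. The median difference of SMF-treated from control cells was 0.36 over all genes tested. Over protein-coding genes with several exons and none facing it was 0.72. List medians of SMF-treated and control cells given below should be read beside this shift. In the plot of list medians, red and blue marks show SMF-treated and control cells, each against unstimulated cells, side by side.

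**Figure D2:**
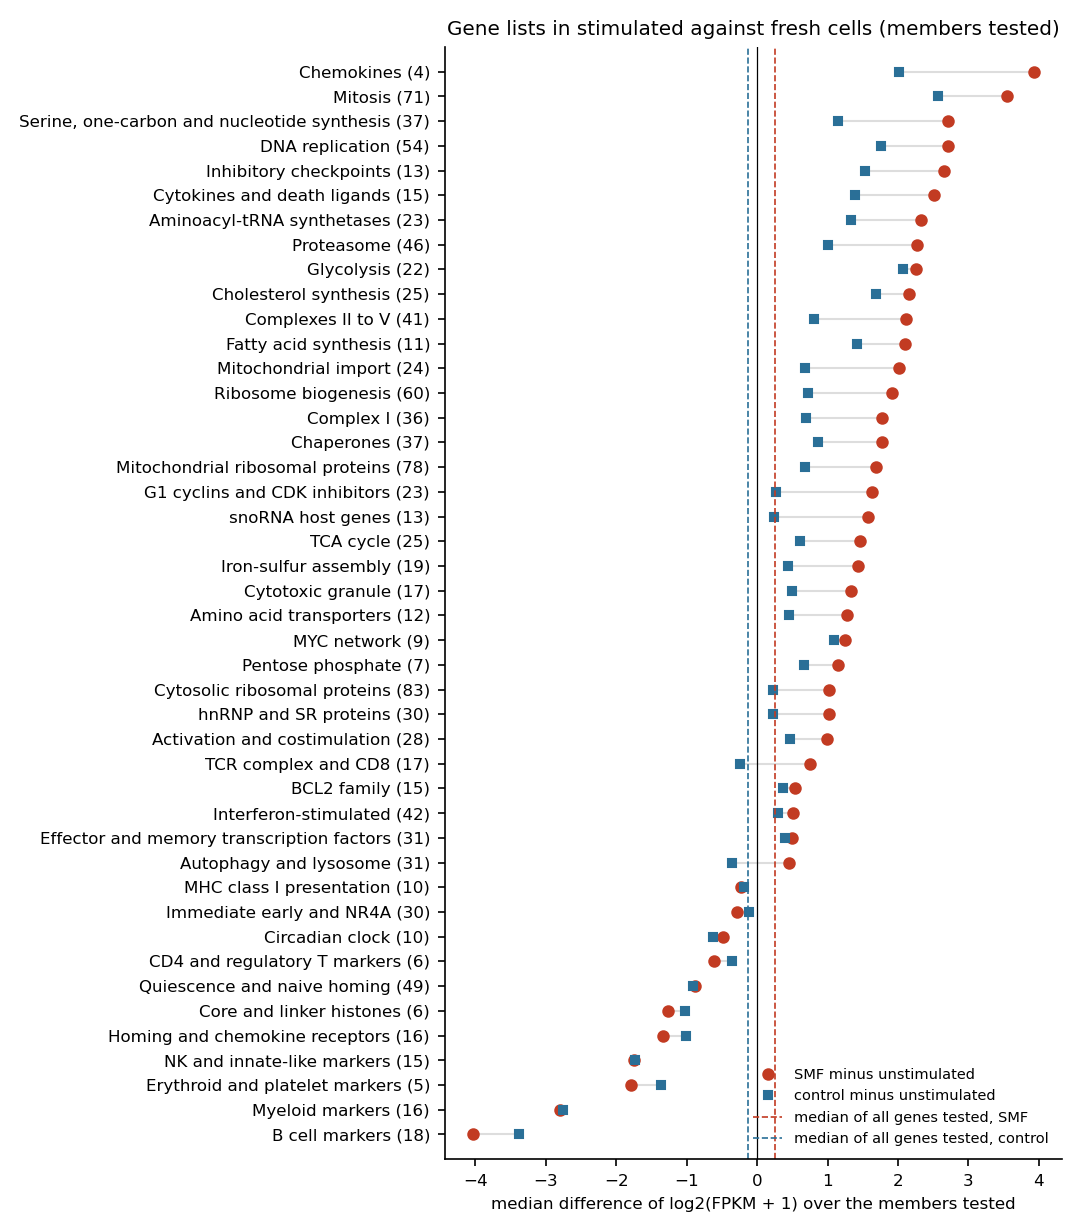
Median difference of log2(FPKM + 1) from unstimulated cells (horizontal axis) for 44 gene lists (vertical axis, members tested in parentheses), as red circles for SMF-treated and blue squares for control cells, with dashed lines at the medians of all genes tested. Medians for SMF-treated cells run from -4.04 for B cell markers to 3.93 for chemokines, with mitosis at 3.54 and quiescence at -0.88.

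The libraries carried the markers of the labelled cell type. *Cd3e*, which encodes a chain of the T cell receptor complex and faces *Gm48719*, stood at 88.7 and 88.4 FPKM in the fresh and 102 and 72.3 FPKM in the SMF-treated libraries, with overlapping groups and no call (adjusted p = 0.927). *Cd8a*, for the alpha chain of the CD8 coreceptor, had 192 and 186 FPKM in SMF-treated and 92.5 and 105 FPKM in fresh cells. *Cd8b1*, for the beta chain, had 143 and 271 FPKM in fresh cells and 94.6 and 91.9 FPKM in SMF-treated cells. The alpha chain was thus higher and the beta chain lower in both SMF libraries than in both fresh libraries, and neither difference passed the test (adjusted p = 0.0759 and 0.166). *Cd4*, the marker of helper T cells, was low in fresh cells at 2.05 and 4.68 FPKM and listed at 0 in both SMF libraries.

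B cell and myeloid markers were lower in SMF-treated cells. In fresh cells the 20 B cell markers summed to 917 and 890 FPKM, against 86.2 and 81.8 FPKM in SMF-treated cells and 97.3 and 105 FPKM in control cells. Of 18 such markers tested, 17 were lower and 0 higher in SMF-treated cells, with a median difference of -4.04. Of these, 7 were listed at 0 in both SMF libraries, so they passed the level filter through the fresh libraries alone and their differences depend on the pseudocount, and of the 11 others 10 were lower. *Cd74*, the invariant chain of MHC class II, had 113 and 146 FPKM in the fresh and 5.75 and 5.71 FPKM in the SMF-treated libraries (log2 difference -4.27 ± 0.46, adjusted p = 0.00477). *Ighm*, the immunoglobulin M heavy chain and the most abundant gene of this list in every library, had 68.5 and 65.1 FPKM in SMF-treated and 139.6 and 167 FPKM in fresh cells. Myeloid markers summed to 337 and 346 FPKM in fresh and 47.5 and 52.7 FPKM in SMF-treated cells, where most of the sum was *Csf1r*, at 41.1 and 50.4 FPKM, a gene that faces *Hmgxb3*. Of 16 tested, 11 were lower and 0 higher, but 12 of the 16 were listed at 0 in both SMF libraries, 10 of the 11 lower genes among them, and of the 4 others only *Mpeg1* was lower. *Lyz2*, the lysozyme of macrophages and neutrophils, had 42.4 and 74.0 FPKM in fresh cells, and the complement gene *C1qc* had 55.1 and 34.7 FPKM. Both were listed at 0 in the SMF libraries, as were *C1qa* and *Tyrobp*, the adaptor of natural killer and myeloid receptors, which had 59.9 and 52.7 FPKM in fresh cells. Natural killer and innate-like markers summed to 735 and 480 FPKM in fresh and 227 and 321 FPKM in SMF-treated cells, with 4 of 15 lower (26.7%: *Tyrobp*, *Klrk1*, *Klrb1c*, *Fcer1g*) and 1 higher (6.67%: *Klrc1*), beside 9.46% and 14.0% of all genes tested. All but *Klrk1* of those lower genes were listed at 0 in both SMF libraries, and *Tyrobp* and *Fcer1g* are in the myeloid list too. Their most abundant gene in fresh cells was *Klrk1*, the activating receptor NKG2D, which CD8+ T cells also use, at 456 and 295 FPKM against 72.1 and 92.5 FPKM in SMF-treated cells. Erythroid and platelet markers had 1 of 5 lower, *Gp1ba*. Of 6 CD4 and regulatory T cell markers, *Ctla4* was higher and *Cd40lg* lower, the latter listed at 0 in both SMF libraries. *Cd40lg* thus passed the level filter through the fresh libraries alone. These counts of 1 are near what the shares of all genes tested (14.0% higher and 9.46% lower) would bring. In bulk samples, fewer cells of a type and less RNA per cell cannot be told apart, and the part of these cells in the other differences was not tested. Of 10 stromal markers only *Pecam1* was abundant enough to test, at 17.7 and 54.2 FPKM in fresh cells and 21.6 and 54.1 FPKM in SMF-treated cells.

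**Figure D3:**
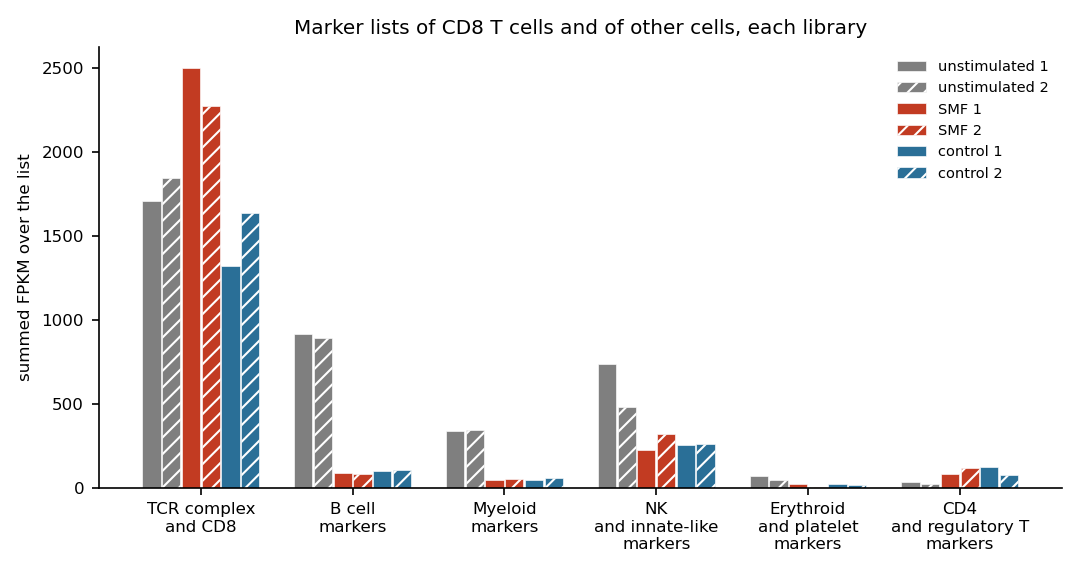
Summed FPKM (vertical axis) of marker lists for CD8 T cells and for other cells (horizontal axis) in each library, hatched bars being replicate 2. B cell markers sum to 917 and 890 FPKM in the unstimulated libraries and to 86.2 and 81.8 FPKM in the SMF libraries.

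Several genes of the cytotoxic effector program rose. *Gzmb*, for granzyme B, the protease that triggers death of the target cell (chr14:56258838-56262260, minus strand, in GRCm38), was listed at 10.2 and 11.7 FPKM in the fresh and 2282 and 4283 FPKM in the SMF-treated libraries (log2 difference 8.04 ± 0.32, adjusted p = 0.00125). This was the largest rise among called protein-coding genes that averaged 10 FPKM or more and whose groups did not overlap, and in control cells *Gzmb* had 1494 and 1565 FPKM. *Prf1*, for the pore-forming perforin, had 35.7 and 44.2 FPKM in SMF-treated and 3.07 and 12.8 FPKM in fresh cells (log2 difference 2.45 ± 0.60, adjusted p = 0.0339). *Nkg7*, a granule membrane protein needed for degranulation, had 12 and 27.7 FPKM in fresh cells and 137 and 141 FPKM in SMF-treated cells. *Serpinb9*, the inhibitor that shields the killer cell from its own granzyme B, had 1.32 and 0.741 FPKM in the fresh and 35.4 and 52.0 FPKM in the SMF-treated libraries (log2 difference 4.45 ± 0.41, adjusted p = 0.00445). Granzyme A moved the other way: *Gzma* had 77.7 and 38.2 FPKM in fresh cells and was listed at 0 in both SMF libraries and was at 18.3 and 0 FPKM in the control libraries. Of 17 cytotoxic granule genes tested, 8 were higher (47.1%), 1 was lower (5.88%) and 8 were not called, beside 14.0% and 9.46% of all genes tested. The list's median difference was 1.33 against 0.25 over all genes tested.

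Cytokine and chemokine genes followed the same direction, with 9 of 15 cytokines and death ligands higher (60%, beside 14.0% of all genes tested) and 0 lower. Of these 9 higher genes, 5 were listed at 0 in both fresh libraries. *Ifng*, for interferon gamma, had 187 and 308 FPKM in SMF-treated and 26.3 and 12.7 FPKM in fresh cells (log2 difference 3.64 ± 0.48, adjusted p = 0.00704) and 309.5 and 175 FPKM in control cells. *Tnf*, for tumor necrosis factor, had 0 and 2.57 FPKM in fresh cells and 21.5 and 23.9 FPKM in SMF-treated cells (log2 difference 3.65 ± 0.74, adjusted p = 0.0208) and 7.01 and 2.90 FPKM in control cells. The SMF libraries lay above both other groups for *Tnf*, but SMF against control did not pass the test (difference 2.08, adjusted p = 0.208). *Lta*, for lymphotoxin alpha, had 4.02 and 0.258 FPKM in the fresh and 17.7 and 20.4 FPKM in the SMF-treated libraries (log2 difference 2.99 ± 0.72, adjusted p = 0.0324). *Spp1* (osteopontin), *Tnfsf11* (the ligand RANKL) and *Csf2* (GM-CSF, facing *Gm12223*) were each listed at 0 in both fresh libraries. They passed the level filter through the SMF libraries alone. In the SMF libraries *Spp1* reached 9.04 and 10.5 FPKM, *Tnfsf11* 11.0 and 6.87 FPKM and *Csf2* 4.43 and 6.26 FPKM. Interleukin 3 split the SMF pair, with *Il3* at 1.53 and 9.55 FPKM, and was not called. Of 4 chemokines tested, *Xcl1*, *Ccl3* and *Ccl4* were higher and *Ccl5* was lower. *Xcl1*, which attracts cross-presenting dendritic cells and faces *Gm20743*, had 511 and 295 FPKM in SMF-treated and 9.26 and 3.82 FPKM in fresh cells (log2 difference 5.79 ± 0.49, adjusted p = 0.00377). *Ccl3*, an inflammatory chemokine, had 7.03 and 3.97 FPKM in fresh cells and 126 and 141 FPKM in SMF-treated cells (log2 difference 4.41 ± 0.47, adjusted p = 0.00477). *Ccl5*, the RANTES chemokine that memory CD8+ T cells keep ready, had 20.2 and 37.3 FPKM in the fresh and 0.472 and 6.56 FPKM in the SMF-treated libraries (log2 difference -3.10 ± 0.81, adjusted p = 0.0411).

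Receptors that mark an activated T cell were among the largest rises. *Tnfrsf9*, for the costimulatory receptor 4-1BB, had 219.9 and 193 FPKM in SMF-treated and 0 and 1.90 FPKM in fresh cells (log2 difference 6.92 ± 0.52, adjusted p = 0.00332). *Tnfrsf4*, for OX40, was listed at 0 in both fresh libraries and at 44.2 and 67.8 FPKM in SMF-treated cells. *Il2ra*, for the high-affinity chain of the interleukin 2 receptor, had 0.708 and 0.894 FPKM in fresh cells and 86.5 and 113 FPKM in SMF-treated cells (log2 difference 5.80 ± 0.33, adjusted p = 0.00326). *Tfrc*, for the transferrin receptor that brings in iron, had 2.32 and 3.01 FPKM in the fresh and 182 and 172 FPKM in the SMF-treated libraries (log2 difference 5.61 ± 0.29, adjusted p = 0.00326). The groups did not overlap for any of these, and control cells had 158 and 156 FPKM of *Tnfrsf9*, 44.5 and 43.8 FPKM of *Tnfrsf4*, 52.4 and 59.2 FPKM of *Il2ra* and 82.7 and 106 FPKM of *Tfrc*. *Cd44*, *Cd28*, *Icos*, *Cd80*, *Il12rb1*, *Il2rb* and *Tnfrsf18* (facing *Gm16008*) were also higher. *Cd69*, an early activation marker, did not pass the test at 78.0 and 83.6 FPKM in SMF-treated and 62.1 and 79.4 FPKM in fresh cells (adjusted p = 0.593). In total 11 of 28 activation and costimulation genes were higher (39.3%, beside 14.0% of all genes tested). The 3 lower genes, *Cd27*, *Cd38* and *Cd40lg*, made up 10.7%, near the 9.46% of all genes tested. Of these, *Cd40lg* was listed at 0 in both SMF libraries and passed the level filter through the fresh libraries alone.

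Of 13 inhibitory checkpoint genes 6 were called higher (46.2%) and 1 lower (7.69%), beside 14.0% and 9.46% of all genes tested. *Pdcd1*, for PD-1, *Lag3* and *Tigit* were each listed at 0 in both fresh libraries and passed the level filter through the SMF libraries alone, and of the 10 other members 3 were higher. In SMF-treated cells *Pdcd1* reached 30.9 and 21.7 FPKM, *Lag3* 14.5 and 19.6 FPKM and *Tigit* 38.6 and 31.2 FPKM. *Ctla4* had 0 and 1.99 FPKM in fresh cells and 64.8 and 105 FPKM in SMF-treated cells (log2 difference 5.60 ± 0.67, adjusted p = 0.00605). *Cd200* and *Cish*, which faces *Gm17041*, completed the higher members. *Socs3*, a feedback inhibitor of cytokine signalling, fell from 27.3 and 32.1 FPKM to 1.34 and 1.80 FPKM (log2 difference -3.58 ± 0.51, adjusted p = 0.00874).

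Among T cell receptor signalling genes, 5 of 17 were higher (29.4%, beside 14.0% of all genes tested) and 0 lower, with a median of 0.75 in SMF-treated and -0.24 in control cells. The median of SMF against control was 0.83 for this list, beside 0.36 over all genes tested and 0.72 over protein-coding genes with several exons and none facing. Of the 13 protein-coding genes with several exons and none facing 3 were higher, near the 20% of all such genes. *Cd5*, a surface brake on receptor signalling whose level follows signal strength, had 14.0 and 18.6 FPKM in the fresh and 159 and 115 FPKM in the SMF-treated libraries (log2 difference 3.0 ± 0.32, adjusted p = 0.00483) and 31.5 and 39.8 FPKM in control cells. *Lcp2*, the adaptor SLP-76, which faces *4930469K13Rik*, had 88.2 and 95.0 FPKM in SMF-treated and 15.9 and 17.3 FPKM in fresh cells (log2 difference 2.39 ± 0.29, adjusted p = 0.00618). *Zap70* and *Cd6* were also higher. *Lck*, the kinase that starts the signal, did not pass the test at 154 and 177 FPKM in fresh cells and 140.4 and 147 FPKM in SMF-treated cells (adjusted p = 0.528).

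**Figure D4:**
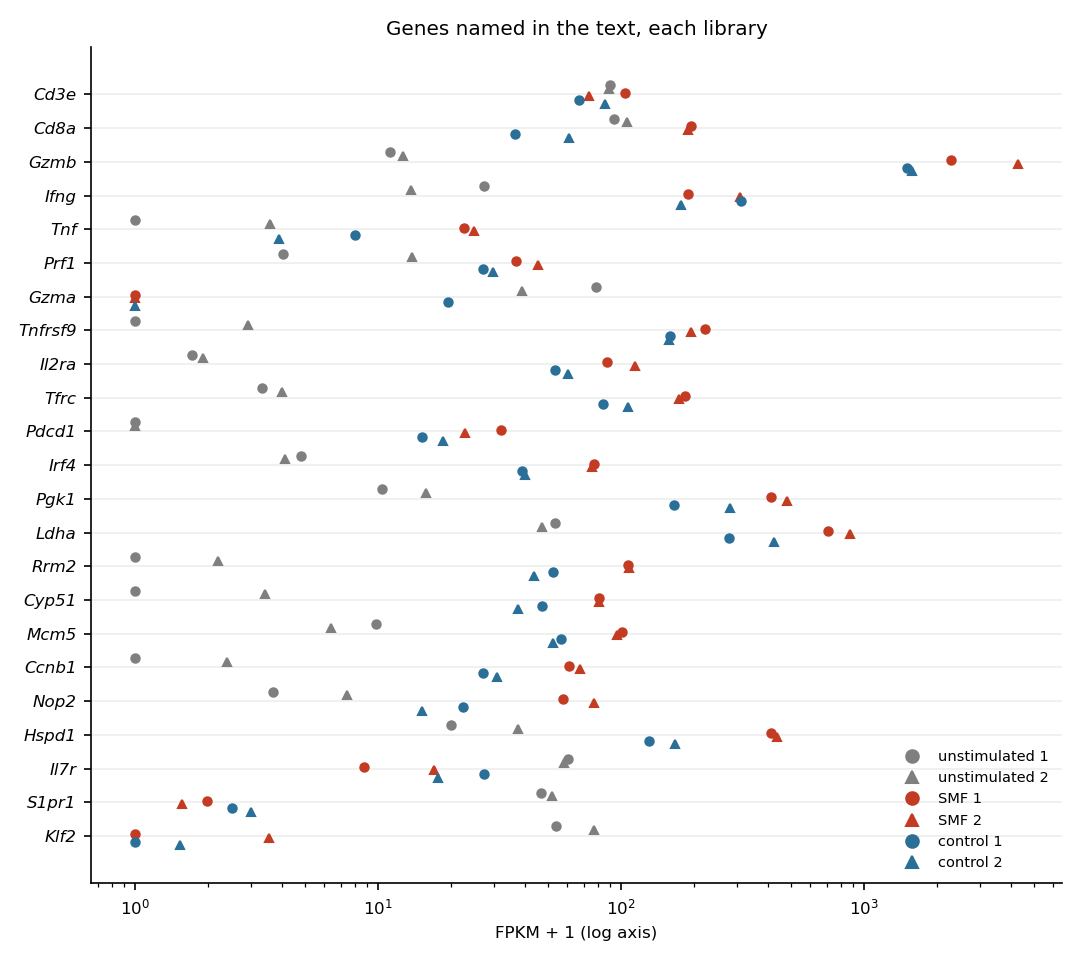
FPKM + 1 on a log axis (horizontal) of 23 genes (vertical axis) in each library, circles for replicate 1 and triangles for replicate 2, in grey for unstimulated, red for SMF-treated and blue for control cells; points are shifted vertically only to keep them apart. *Gzmb* runs from 10.2 and 11.7 FPKM in fresh cells to 2282 and 4283 FPKM in SMF-treated cells, while *Klf2* and *S1pr1* run the opposite way.

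Of 31 transcription factors of effector and memory cells, 6 were higher (19.4%) and 3 lower (9.68%), shares near the 14.0% and 9.46% of all genes tested. *Irf4*, a factor whose level scales with receptor signal strength, had 3.79 and 3.12 FPKM in the fresh and 76.5 and 74.9 FPKM in the SMF-treated libraries (log2 difference 4.11 ± 0.30, adjusted p = 0.00326). *Zbtb32*, a repressor induced in activated lymphocytes, had 49.5 and 123 FPKM in SMF-treated and 5.79 and 1.95 FPKM in fresh cells (log2 difference 4.15 ± 0.60, adjusted p = 0.00912). *Mybl2*, *Bhlhe40* (facing *0610040F04Rik*), *Irf8* and *Stat4* were also higher. *Ets1*, a factor abundant in resting T cells, fell from 122 and 124 FPKM to 36.2 and 38.1 FPKM (log2 difference -1.70 ± 0.29, adjusted p = 0.0131), and *Bcl6*, which faces *Gm37419*, and *Runx1*, which faces *Gm26626*, were called lower. *Tbx21*, for T-bet, had 6.15 and 4.57 FPKM in fresh cells and 4.76 and 12.7 FPKM in SMF-treated cells and was not called, and *Eomes*, facing *Gm33460*, missed the threshold at 26.9 and 12.7 FPKM in the fresh and 2.97 and 5.26 FPKM in the SMF-treated libraries (adjusted p = 0.0501). Immediate early genes were called in both directions. The nuclear receptor *Nr4a2* had 70.2 and 47.8 FPKM in SMF-treated and 0 and 0.293 FPKM in fresh cells (log2 difference 5.70 ± 0.41, adjusted p = 0.00326), and *Nr4a1*, *Nr4a3*, *Egr2*, *Egr3*, *Atf3* and *Rel* were likewise higher. *Fos*, a partner in AP-1 dimers, fell from 40.1 and 37.3 FPKM to 2.89 and 3.74 FPKM (log2 difference -3.21 ± 0.55, adjusted p = 0.0137), and *Jun*, which faces *Junos*, and *Dusp1* fell too. The 30 genes of this list had 7 higher (23.3%) and 3 lower (10%), and a median of -0.29. That median was 1.12 over the 23 protein-coding genes with several exons and none facing, of which 7 were higher and 2 lower, 0.0016 over protein-coding genes with several exons, and 0.10 without SMF replicate 1. *Myc*, the growth regulator, had 11.1 and 16.5 FPKM in fresh cells and 30.5 and 36.4 FPKM in SMF-treated cells and was not called (adjusted p = 0.091).

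Most glycolysis genes rose. Of 22 tested, 17 were higher and 0 lower, with a median of 2.26, and of the 14 with no facing exon, 10 were higher. *Pgk1*, phosphoglycerate kinase, had 9.33 and 14.7 FPKM in the fresh and 411 and 478 FPKM in the SMF-treated libraries (log2 difference 5.13 ± 0.36, adjusted p = 0.00326). *Ldha*, the lactate dehydrogenase subunit that regenerates NAD+, had 708 and 872 FPKM in SMF-treated and 52.3 and 46.3 FPKM in fresh cells (log2 difference 3.97 ± 0.28, adjusted p = 0.00326). *Pgam1*, phosphoglycerate mutase, had 6.20 and 6.01 FPKM in fresh cells and 128 and 151 FPKM in SMF-treated cells (log2 difference 4.30 ± 0.28, adjusted p = 0.00326). Control cells were intermediate for all 3, with 164 and 278 FPKM for *Pgk1*, 275 and 425 FPKM for *Ldha* and 89.1 and 73.6 FPKM for *Pgam1*, and the list's median there was 2.07. The 5 members not called were *Slc2a3*, *Pfkm*, *Ldhb*, *Pdk1* and *Pfkfb4*. In the pentose phosphate pathway, which makes NADPH and ribose, *Pgd*, *Tkt* and *Taldo1* were higher among 7 genes (42.9%, beside 14.0% of all genes tested). *Pgd* had 7.54 and 10.5 FPKM in the fresh and 90.4 and 88.6 FPKM in the SMF-treated libraries (log2 difference 3.19 ± 0.32, adjusted p = 0.00466). Of 12 amino acid transporters 4 were higher (33.3%, beside 14.0% of all genes tested) and 0 lower, among them *Slc7a5*, the large neutral amino acid carrier, at 47.8 and 55.3 FPKM in SMF-treated and 9.54 and 3.41 FPKM in fresh cells (log2 difference 2.94 ± 0.48, adjusted p = 0.0121).

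Genes that make serine, folate-bound carbon units and nucleotides had 29 of 37 members higher and 0 lower, with a median of 2.70 against 1.14 in control cells. *Rrm2* and *Rrm1* encode the small and large subunits of ribonucleotide reductase, which turns ribonucleotides into the precursors of DNA. *Rrm2* had 0 and 1.18 FPKM in fresh cells and 106 and 106 FPKM in SMF-treated cells (log2 difference 6.18 ± 0.45, adjusted p = 0.00326), and *Rrm1* had 1.56 and 2.01 FPKM in the fresh and 127 and 127 FPKM in the SMF-treated libraries (log2 difference 5.53 ± 0.32, adjusted p = 0.00326). *Psat1*, an enzyme of serine synthesis, had 58.6 and 40.9 FPKM in SMF-treated and 0 and 2.01 FPKM in fresh cells (log2 difference 4.85 ± 0.59, adjusted p = 0.00618). All 37 members had a positive difference, and among the 25 with no facing exon 22 were higher.

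Lipid synthesis showed the same direction. Of 25 cholesterol synthesis genes, 16 were higher and 0 lower, with medians of 2.16 in SMF-treated and 1.69 in control cells, and 6 of 11 fatty acid synthesis genes were higher and 0 lower. *Cyp51*, the lanosterol demethylase, which faces *Akap9*, had 0 and 2.42 FPKM in fresh cells and 79.6 and 80.1 FPKM in SMF-treated cells (log2 difference 5.45 ± 0.60, adjusted p = 0.00497). *Idi1*, an isomerase of the isoprenoid branch that faces *Gm48574*, had 2.29 and 3.14 FPKM in the fresh and 87.0 and 84.7 FPKM in the SMF-treated libraries (log2 difference 4.56 ± 0.32, adjusted p = 0.00326). *Msmo1*, a sterol oxidase, had 20.4 and 17.9 FPKM in SMF-treated and 0 and 0.418 FPKM in fresh cells (log2 difference 4.08 ± 0.45, adjusted p = 0.00491). Each stood above both fresh libraries in both SMF libraries. *Scd2*, a desaturase of fatty acids, had 5.61 and 4.68 FPKM in fresh cells and 41.7 and 95.9 FPKM in SMF-treated cells (log2 difference 3.39 ± 0.46, adjusted p = 0.00803). In RefSeq promoters of the same build, 250 bases before to 50 after each start (GRCm38.p6), 17 of the 18 cholesterol genes with an entry (94.4%) held the letters CCAAT on either strand, against 42.5% of genes tested and 41.1% of the 27025 genes with a promoter. These letters are bound by the factor NF-Y, which acts with sterol-responsive factors in such promoters. A sterol element spelled TCACNCCAC was found in 1 of the 18 (5.56%), in 1.37% of genes tested and in 1.44% of all genes. A gene was counted if any of its starts matched, and such a match describes letters, not binding. All motif shares here and below are over genes with a promoter entry, which 8913 of 15096 tested gene symbols had. Of symbols called higher 1516 of 2120 had an entry, and of those called lower 642 of 1429. The 40 bases around the match nearest the start are given for the 3 genes whose values stand above, to show the letters. The match ended 24 bases before the start for *Cyp51*, 9 for *Idi1* and 50 for *Msmo1*, and 131 for *Pmvk*, a further named gene of the list. The windows are read 5′ to 3′ on the gene's strand with the box or its reverse complement in capitals.
*Cyp51*, chr5:4104704-4104743, minus strand, 24 bases before the start: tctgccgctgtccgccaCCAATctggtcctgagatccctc
*Idi1*, chr13:8885566-8885605, plus strand, 9 bases before the start: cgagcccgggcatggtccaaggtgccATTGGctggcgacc
*Msmo1*, chr8:64733611-64733650, minus strand, 50 bases before the start: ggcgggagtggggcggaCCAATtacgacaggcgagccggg

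Most genes that copy and divide the genome were higher in SMF-treated cells. Of 71 mitosis genes, 62 were higher and 0 lower, with a median of 3.54, and of 54 replication genes 36 were higher and 2 lower, with a median of 2.70. Of these higher genes, 22 of the mitosis list and 4 of the replication list were listed at 0 in both fresh libraries and passed the level filter through the SMF libraries alone. Among the members above 0 in a fresh library, 40 of 49 and 32 of 50 were higher. Among genes with no facing exon the counts were 51 of 55 and 27 of 36 higher. Replication is licensed by the MCM ring, the helicase that opens DNA, loaded with the help of the *Cdc6* product. *Cdc6* was listed at 0 in both fresh libraries and at 25.9 and 40.6 FPKM in SMF-treated cells. *Mcm5* had 8.81 and 5.38 FPKM in the fresh and 99.9 and 95.4 FPKM in the SMF-treated libraries (log2 difference 3.64 ± 0.32, adjusted p = 0.00435). All 6 ring subunits, *Mcm2* to *Mcm7*, were called higher, with differences from 1.17 for *Mcm7*, which faces *Ap4m1*, to 3.64 for *Mcm5*. *Top2a*, the topoisomerase that untangles copied DNA, had 213 and 210.0 FPKM in SMF-treated and 0.337 and 9.97 FPKM in fresh cells (log2 difference 5.79 ± 0.91, adjusted p = 0.0109). The groups did not overlap for *Mcm5* or *Top2a*. *Clspn*, a checkpoint adaptor at the fork, had 0.212 and 0.115 FPKM in fresh cells and 66.1 and 31.4 FPKM in SMF-treated cells (log2 difference 5.33 ± 0.55, adjusted p = 0.00466). The lower members were *Orc3*, a subunit of the origin complex, at 105 and 172 FPKM in the fresh and 50.4 and 53.8 FPKM in the SMF-treated libraries, and *Gins2*, which faces *Gse1*, at 111 and 116 FPKM in SMF-treated and 339 and 315 FPKM in fresh cells.

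Of the 71 mitosis genes, 31 and 27 were listed at 0 in the fresh libraries and 0 in either SMF library. Genes that every cell uses were also listed at 0 in unstimulated replicate 1, among them 8 of complex I, 5 of the proteasome and 18 of the mitochondrial ribosome. The median level on the log2(FPKM + 1) scale was 1.07 and 0.97 in the unstimulated libraries and 5.08 and 5.00 in the SMF libraries. *Ccnb1*, the cyclin that drives entry into mitosis, had 0 and 1.39 FPKM in fresh cells and 59.8 and 66.9 FPKM in SMF-treated cells (log2 difference 5.38 ± 0.50, adjusted p = 0.00445). *Birc5*, the survivin subunit of the chromosomal passenger complex, had 1.72 and 0.418 FPKM in the fresh and 90.0 and 53.0 FPKM in the SMF-treated libraries (log2 difference 5.16 ± 0.48, adjusted p = 0.00445). *Cdc20*, an activator of the anaphase-promoting complex that faces *Elovl1*, had 58.5 and 57.9 FPKM in SMF-treated and 0 and 1.57 FPKM in fresh cells (log2 difference 5.21 ± 0.52, adjusted p = 0.00466). None of these groups overlapped. *Mki67*, the proliferation antigen Ki-67, had 10.5 and 7.64 FPKM in fresh cells and 73.8 and 86.3 FPKM in SMF-treated cells (log2 difference 3.02 ± 0.31, adjusted p = 0.00466). In control cells the list's median was 2.56 with 40 members higher, *Ccnb1* had 25.9 and 29.8 FPKM and *Mki67* had 49.3 and 60.0 FPKM. The members not called were *Plk4*, *Cdca8*, *Kif20a*, *Kif22*, *Prc1*, *Ncapg*, *Smc4*, *Pttg1* and *Dlgap5*.

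E2F letters in replication promoters and CHR letters in mitosis promoters were more frequent than in promoters in general. An E2F motif, searched as TTTCCCGC, TTTCGCGC, TTTGCCGC or TTTGGCGC on either strand, was found for 17 of 45 replication genes (37.8%). Among genes with a promoter entry, it was found for 7.85% of 1516 called higher and 1.25% of 642 called lower. The share was 4.75% of the 8913 tested genes with an entry and 2.6% of all genes with a promoter. E2F factors drive genes of the S phase. The CHR motif TTTGAA, used by genes of the later cycle, was found for 40 of 61 mitosis genes (65.6%), 15% of genes tested and 20.2% of all genes. It was found for 8 of 45 replication genes (17.8%), 19.2% of genes called higher and 18.4% of genes called lower. CCAAT was found for 42 of the same 61 mitosis genes (68.9%), 42.5% of genes tested, 46.8% of genes called higher and 43.3% of genes called lower. Matches of different motifs can overlap and were counted for each. The windows below are from genes of these lists whose values are given here, with the match nearest the start, or its reverse complement, in capitals. The first 4 show E2F letters and the last 3 the CHR.
*Cdc6*, chr11:98907997-98908036, plus strand, 130 bases before the start: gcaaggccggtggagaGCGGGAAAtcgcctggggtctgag
*Mcm5*, chr8:75109344-75109383, plus strand, 141 bases before the start: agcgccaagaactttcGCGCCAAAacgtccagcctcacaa
*Mcm6*, chr1:128359729-128359768, minus strand, 39 bases before the start: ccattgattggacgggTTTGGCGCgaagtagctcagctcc
*Mcm7*, chr5:138172025-138172064, minus strand, 157 bases before the start: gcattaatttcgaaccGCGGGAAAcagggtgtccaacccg
*Ube2c*, chr2:164769883-164769922, plus strand, 23 bases before the start: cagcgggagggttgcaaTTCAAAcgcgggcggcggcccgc
*Cdc20*, chr4:118437344-118437383, minus strand, 12 bases before the start: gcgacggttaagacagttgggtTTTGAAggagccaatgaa
*Mki67*, chr7:135716455-135716494, minus strand, 92 bases before the start: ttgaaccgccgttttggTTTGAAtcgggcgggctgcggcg
In the *Cdc20* window the letters ccaat also follow the CHR. *Ube2c*, the ubiquitin-conjugating enzyme of the anaphase-promoting complex, which faces *Tnnc2*, had 0 and 1.56 FPKM in the fresh and 75.2 and 48.8 FPKM in the SMF-treated libraries (log2 difference 5.27 ± 0.56, adjusted p = 0.00466). *Mcm6* had 88.5 and 78.3 FPKM in SMF-treated and 10.8 and 11.0 FPKM in fresh cells (log2 difference 2.83 ± 0.28, adjusted p = 0.00466), and *Mcm7* had 46.2 and 38.9 FPKM in fresh cells and 107 and 86.9 FPKM in SMF-treated cells (log2 difference 1.17 ± 0.28, adjusted p = 0.0336). The groups did not overlap for *Mcm7*, whose value is uncertain because of its facing partner.

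Of 23 genes that control entry into the cycle, 9 were higher and 3 lower, beside 14.0% and 9.46% of all genes tested. The count of 3 lower is too small to be read as a result about the list. The E2F genes *E2f1*, *E2f2*, *E2f3* and *E2f8* (facing *Gm2788*) were higher. *E2f2* had 1.11 and 1.17 FPKM in the fresh and 12.7 and 15.4 FPKM in the SMF-treated libraries (log2 difference 2.81 ± 0.43, adjusted p = 0.0104). *Cdkn1a*, the inhibitor p21, which faces *AC167363.2*, had 52.0 and 67.3 FPKM in SMF-treated and 1.59 and 0 FPKM in fresh cells (log2 difference 5.22 ± 0.57, adjusted p = 0.00484). *Ccnd2*, the cyclin D of activated T cells, which faces *Gm43126*, had 23.9 and 28.9 FPKM in fresh cells and 72.8 and 59.9 FPKM in SMF-treated cells (log2 difference 1.3 ± 0.34, adjusted p = 0.0399), and *Cdk4*, facing *Tspan31*, had 4.61 and 105 FPKM in the fresh and 322 and 360.4 FPKM in the SMF-treated libraries and was not called. An inhibitor of E2F and a pair of cyclin genes were lower. *Rb1*, for the retinoblastoma protein that holds E2F in check, was listed at 38.6 and 34.6 FPKM in SMF-treated and 603 and 437 FPKM in fresh cells (log2 difference -3.77 ± 0.27, adjusted p = 0.00326), but it faces *Rcbtb2* and its level is uncertain. *Ccne1* and *Ccnd1*, the latter facing *Oraov1*, were the other lower genes. *Cdkn1b*, for the inhibitor p27 of resting cells, had 37.4 and 47.3 FPKM in fresh cells and 15.5 and 19.2 FPKM in SMF-treated cells and was not called (adjusted p = 0.0908).

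The machinery that makes protein rose in parts. Of 60 ribosome biogenesis genes 37 were higher and 0 lower, with a median of 1.91, and 59 had a positive difference. *Nop2*, a methyltransferase of ribosomal RNA, had 2.68 and 6.46 FPKM in the fresh and 56.4 and 76.4 FPKM in the SMF-treated libraries (log2 difference 3.67 ± 0.47, adjusted p = 0.00685). *Utp4*, a factor of the small subunit processome, had 53.6 and 39.0 FPKM in SMF-treated and 4.03 and 3.31 FPKM in fresh cells (log2 difference 3.33 ± 0.36, adjusted p = 0.00484). *Polr1c*, a subunit shared by RNA polymerases I and III, had 1.90 and 3.12 FPKM in fresh cells and 44.8 and 64.2 FPKM in SMF-treated cells (log2 difference 3.98 ± 0.73, adjusted p = 0.0158). Of 23 aminoacyl-tRNA synthetase genes, whose products load amino acids onto tRNA, 16 were higher and 0 lower. *Gars*, for glycine, had 5.08 and 8.88 FPKM in the fresh and 81.3 and 85.2 FPKM in the SMF-treated libraries (log2 difference 3.44 ± 0.40, adjusted p = 0.00575). Cytosolic ribosomal proteins shifted less, with 28 of 83 higher (33.7%, beside 14.0% of all genes tested), 1 lower and a median of 1.02. With the protein-coding sum made equal in all libraries 13 were higher and 2 lower. Under that scaling 1321 of all 15100 genes were higher and 2005 lower. *Rps27l*, a paralog that responds to p53, had 678 and 515 FPKM in SMF-treated and 33.3 and 49.4 FPKM in fresh cells (log2 difference 3.83 ± 0.29, adjusted p = 0.00345). Ribosomal protein genes have many processed copies, so the division of reads among them is uncertain. The E-box CACGTG, a site of MYC and related factors, was found in the promoters of 14 of 53 ribosome biogenesis genes (26.4%) and 4 of 15 synthetase genes (26.7%), the latter a small count. It was found in 11.9% of genes tested, 8.09% of all genes, 12.4% of genes called higher and 11.1% of genes called lower. Shares in the other lists searched ran from 6.56% of mitosis genes to 19% of glycolysis and 22.2% of cholesterol synthesis genes. The window of *Nop2* is given as the gene with values above, with the palindromic E-box in capitals.
*Nop2*, chr6:125131806-125131845, plus strand, 54 bases before the start: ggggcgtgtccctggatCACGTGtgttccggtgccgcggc

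Most genes of protein folding and breakdown rose. Of 46 proteasome genes 31 were higher and 0 lower, all 46 had a positive difference, and the median was 2.27 against 1.01 in control cells. *Psmb4*, a subunit of the core particle, had 19.1 and 23.6 FPKM in fresh cells and 248 and 214 FPKM in SMF-treated cells (log2 difference 3.38 ± 0.39, adjusted p = 0.00577) and 41.0 and 85.1 FPKM in control cells. *Psme3*, a nuclear activator of the proteasome, had 9.17 and 14.4 FPKM in the fresh and 104 and 120.2 FPKM in the SMF-treated libraries (log2 difference 3.18 ± 0.33, adjusted p = 0.00466). Among 37 chaperones 29 were higher and 0 lower. *Hspd1*, the mitochondrial HSP60, which faces *Hspe1*, had 414 and 436 FPKM in SMF-treated and 18.9 and 36.7 FPKM in fresh cells (log2 difference 3.96 ± 0.36, adjusted p = 0.00435). *Cct3*, a subunit of the ring that folds actin and tubulin, had 37.1 and 49.6 FPKM in fresh cells and 381 and 322 FPKM in SMF-treated cells (log2 difference 3.0 ± 0.31, adjusted p = 0.00466). Control cells lay between, at 129 and 165 FPKM for *Hspd1* and 92.4 and 144 FPKM for *Cct3*.

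Mitochondrial genes were the subject of the study, and no member of the respiratory chain lists was called lower in SMF-treated than in fresh cells. Outside these lists, the cytochrome c oxidase gene *Cox6a2*, which faces *Itgad*, was among the largest falls named below. Of 36 complex I subunits and assembly factors 14 were higher (38.9%) and 0 lower, with a median of 1.77, and 0.69 in control cells. Of 41 genes of complexes II to V 27 were higher (65.9%) and 0 lower, with a median of 2.11, and 0.81 in control cells. Of all genes tested 14.0% were higher and 9.46% lower. *Ndufb3*, an accessory subunit of complex I, was listed at 0 in both fresh libraries and at 25.2 and 53.7 FPKM in SMF-treated cells. *Ndufa12*, another accessory subunit, had 0 and 1.34 FPKM in the fresh and 51.2 and 60.7 FPKM in the SMF-treated libraries (log2 difference 5.21 ± 0.54, adjusted p = 0.00466). *Cycs*, for cytochrome c, had 61.1 and 66.8 FPKM in SMF-treated and 4.10 and 12.3 FPKM in fresh cells (log2 difference 2.98 ± 0.54, adjusted p = 0.0158). All of these stood higher in each SMF library than in either fresh one. *Sdhb*, the iron-sulfur subunit of succinate dehydrogenase, had 4.77 and 17.3 FPKM in fresh cells and 76.7 and 58.4 FPKM in SMF-treated cells (log2 difference 2.73 ± 0.58, adjusted p = 0.0231). Mitochondrial import had 11 of 24 genes higher (45.8%) and 0 lower, and the TCA cycle 12 of 25 higher (48%) and 0 lower. Mitochondrial ribosomal proteins had 28 of 78 higher (35.9%) and 1 lower (1.28%), *Mrps25*, which faces *Nr2c2*. *Mdh2*, mitochondrial malate dehydrogenase, had 19.5 and 22.5 FPKM in the fresh and 140.4 and 130.1 FPKM in the SMF-treated libraries (log2 difference 2.63 ± 0.34, adjusted p = 0.00698). With the protein-coding sum made equal, complex I kept 5 higher and 0 lower and complexes II to V 20 higher and 0 lower. Under that scaling 1321 of all 15100 genes were higher and 2005 lower. The complex I count is too small there to be read as a result about the list.

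Respiratory genes and candidate magnetoreceptor genes of interest to the study were read separately. *Uqcrb*, a subunit of complex III that faces *Gm10767*, had 55.8 and 59.1 FPKM in SMF-treated and 8.34 and 23.6 FPKM in fresh cells and 5.23 and 41.2 FPKM in control cells. *Ndufs6*, a subunit of complex I that faces *Mrpl36*, had 3.76 and 8.47 FPKM in fresh cells and 72.7 and 56.4 FPKM in SMF-treated cells and 0 and 17.6 FPKM in control cells. Both SMF libraries exceeded both fresh libraries for each gene, without passing the test (adjusted p = 0.176 and 0.114), and the control pair spanned a wide range. *Isca1*, an iron-sulfur assembly protein that faces *Etohd2*, had 3.71 and 7.29 FPKM in the fresh and 19 and 11.7 FPKM in the SMF-treated libraries (adjusted p = 0.0987). The cryptochrome gene *Cry1* had 6.23 and 7.74 FPKM in SMF-treated and 0 and 4.64 FPKM in fresh cells, and *Cry2*, which faces *D930015M05Rik*, had 2.53 and 0.433 FPKM in fresh cells and 1.41 and 1.38 FPKM in SMF-treated cells. Neither was called (adjusted p = 0.275 and 0.936), and the *Cry2* groups overlapped.

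Of 49 genes of rest and naive homing, 18 fell (36.7%, beside 9.46% of all genes tested) and 2 rose (4.08%, beside 14.0%). The median was -0.88 in SMF-treated and -0.92 in control cells. Of the 34 with no facing exon 10 were lower and 2 higher. *Klf2*, a factor that maintains quiescence and directs the homing receptors (chr8:72319033-72321656, plus strand), had 52.7 and 76.5 FPKM in the fresh and 0 and 2.56 FPKM in the SMF-treated libraries (log2 difference -5.09 ± 0.73, adjusted p = 0.00888). *S1pr1*, the receptor that lets T cells leave lymphoid organs and a target of KLF2, had 0.972 and 0.551 FPKM in SMF-treated and 45.6 and 50.6 FPKM in fresh cells (log2 difference -4.81 ± 0.45, adjusted p = 0.00445). Both genes were lower in both SMF libraries than in either fresh library. *Il7r*, for the survival receptor of interleukin 7, had 59.5 and 56.9 FPKM in fresh cells and 7.72 and 15.9 FPKM in SMF-treated cells (log2 difference -2.29 ± 0.44, adjusted p = 0.0179). *Tcf7*, for the naive and memory factor TCF-1, had 95.1 and 148 FPKM in the fresh and 44.1 and 19.7 FPKM in the SMF-treated libraries (log2 difference -1.97 ± 0.49, adjusted p = 0.036), and *Lef1*, its relative, which faces *Gm43352*, had 19.4 and 20.4 FPKM in SMF-treated and 79 and 80.1 FPKM in fresh cells. The groups did not overlap for any of these genes, and control cells stood at 0 and 0.524 FPKM for *Klf2*, 1.5 and 2.0 FPKM for *S1pr1* and 26.3 and 16.5 FPKM for *Il7r*. Among the other genes of this list that fell were *Txnip* and *Tsc22d3*. *Txnip*, which restrains glucose uptake and faces *Gm15441*, had 65.0 and 63.9 FPKM in fresh cells and 11.3 and 10.4 FPKM in SMF-treated cells (log2 difference -2.47 ± 0.31, adjusted p = 0.00649). *Tsc22d3*, a glucocorticoid-induced factor, had 49.7 and 35.5 FPKM in the fresh and 4.80 and 6.17 FPKM in the SMF-treated libraries (log2 difference -2.74 ± 0.42, adjusted p = 0.0105). The exception among homing receptors was *Ccr7*, which guides naive cells into lymph nodes and was higher at 93.8 and 104 FPKM in SMF-treated and 20.7 and 42.2 FPKM in fresh cells (log2 difference 1.70 ± 0.39, adjusted p = 0.0284), with 84.5 and 111 FPKM in control cells. *Slfn2*, a gene required for quiescence, was the other, at 33.9 and 38.7 FPKM in fresh cells and 89.6 and 94.8 FPKM in SMF-treated cells. Of 16 further homing and chemokine receptors, 5 were lower (31.25%, beside 9.46% of all genes tested) and 0 higher. These were *Cxcr4*, *Itgb7*, *Cxcr5*, which faces *Bcl9l*, *Itga4*, which faces *Cerkl*, and *Ccr2*. *Ccr2* was listed at 0 in both SMF libraries and passed the level filter through the fresh libraries alone. Of the 14 members above 0 in an SMF library, 4 were lower. *Cxcr4* had 25.0 and 23.7 FPKM in the fresh and 2.92 and 4.14 FPKM in the SMF-treated libraries (log2 difference -2.50 ± 0.47, adjusted p = 0.0172). *Ccr2* and *Cxcr5* are also genes of myeloid and B cells, whose markers fell as given above.

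Of 15 BCL2 family genes, which regulate cell survival, 4 were higher (26.7%) and 0 lower, beside 14.0% and 9.46% of all genes tested, and a count this small is not read as a result about the list. *Bax*, a pore-forming promoter of apoptosis, had 67.2 and 67.0 FPKM in SMF-treated and 0 and 5.59 FPKM in fresh cells (log2 difference 4.73 ± 0.89, adjusted p = 0.0171) and 6.25 and 12.6 FPKM in control cells. *Bcl2l1*, for the protective BCL-XL, had 0 and 2.67 FPKM in fresh cells and 23.7 and 32.7 FPKM in SMF-treated cells (log2 difference 3.91 ± 0.67, adjusted p = 0.0137). *Bcl2a1d*, a protective member with near-identical copies, had 1.86 and 0 FPKM in the fresh and 34.8 and 35.5 FPKM in the SMF-treated libraries, and its division from those copies is uncertain. *Bcl2*, which faces *D630008O14Rik*, and *Mcl1* were not called, with differences of 0.22 and 0.38.

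Interferon-stimulated genes were split within the SMF pair. Summed over the list they came to 335 FPKM in SMF replicate 1 and 1107 FPKM in replicate 2, against 458 and 636 FPKM in fresh cells and 497 and 763 FPKM in control cells. Of 42 genes tested, 41 were higher in SMF replicate 2 than in replicate 1, and 34 at least 2-fold, where 9.68% of all genes tested were. *Isg15*, a ubiquitin-like antiviral protein, had 0 and 44.1 FPKM in SMF-treated and 0 and 4.20 FPKM in fresh cells. *Usp18*, its deconjugating enzyme, which faces *Gm44148*, had 4.41 and 21.2 FPKM in fresh cells and 1.12 and 42.5 FPKM in SMF-treated cells. *Zbp1*, a sensor of nucleic acids, had 4.89 and 6.13 FPKM in the fresh and 1.31 and 32.6 FPKM in the SMF-treated libraries, and *Xaf1* had 2.91 and 48.5 FPKM in SMF-treated and 4.36 and 4.63 FPKM in fresh cells. In each case the fresh libraries lay between the SMF libraries or level with the lower. Against fresh cells 3 of 42 were higher (7.14%: *Gbp2*, *Mx1*, *Bst2*) and 2 lower (4.76%: *Ifi203*, *Ifi213*), shares below those of all genes, with a median of 0.50, which was 1.63 without SMF replicate 1 and -0.72 without replicate 2. *Gbp2*, an interferon-induced GTPase that faces *Mir6381*, was level within the SMF pair at 5.66 and 13.2 FPKM in fresh cells and 83.0 and 84.3 FPKM in SMF-treated cells (log2 difference 3.12 ± 0.54, adjusted p = 0.0137). The surface genes *Ly6a* and *Ly6c2* shared the split, with SMF values of 27.0 and 149 FPKM for *Ly6a* and 12.4 and 158 FPKM for *Ly6c2*. Of 10 genes of MHC class I presentation 1 was lower (10%), *H2-Q7*, beside 9.46% of all genes, and 0 higher.

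**Figure D5:**
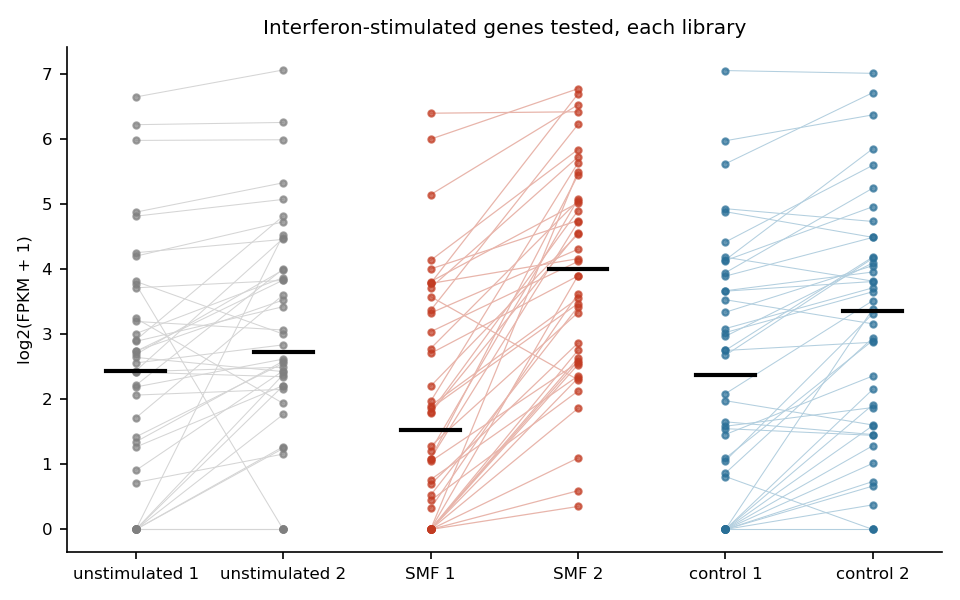
Level of 42 interferon-stimulated genes as log2(FPKM + 1) (vertical axis) in each library (horizontal axis), with lines joining a gene's values within a pair and black bars at the median. The median is 1.53 in SMF replicate 1 and 4.01 in SMF replicate 2, with 2.43 and 2.73 in the unstimulated libraries.

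Beyond the fixed lists, the 15 largest rises among abundant called protein-coding genes held, besides genes already described, *Txn1*, *Stk39*, *Crem*, *Rgs16* (facing *Gm28513*), *Bcat1*, *Nrn1* and *Fars2*. *Txn1*, for the redox protein thioredoxin, had 0 and 16.2 FPKM in the fresh and 254 and 345 FPKM in the SMF-treated libraries (log2 difference 6.16 ± 1.21, adjusted p = 0.0193). *Stk39*, a kinase of ion transport, was listed at 0 in both fresh libraries and at 51.7 and 63.7 FPKM in SMF-treated cells. *Crem*, a cAMP-responsive factor that faces *Gm6225*, had 84.7 and 96.2 FPKM in SMF-treated and 0 and 1.28 FPKM in fresh cells (log2 difference 5.92 ± 0.52, adjusted p = 0.00429) and 9.94 and 16.1 FPKM in control cells. The control cells again lay between the other groups for *Crem*. *Bcat1*, the cytosolic transaminase of branched-chain amino acids, which faces *Gm26666*, was listed at 0 in fresh cells and at 52.7 and 45.5 FPKM in SMF-treated cells. *Fars2* at 1560.4 and 1153 FPKM and *Nrn1* at 90.0 and 78.9 FPKM face each other, so the share of each is uncertain. The 15 largest falls held *Gzma*, *Klf2*, *Lyz2*, *C1qc* and *Tyrobp*, given above, the MHC class II genes *H2-Aa* and *H2-Eb1*, and also *Rasgrp2*, *Fam189b*, *Lamb3*, *Cox6a2* (facing *Itgad*), *Olfr164*, *BC049352*, *Gm10645* (facing *Tbc1d9*) and *Fcamr*. *Rasgrp2*, an activator of the adhesion switch RAP1 that faces *Gm14965*, had 78.0 and 98.9 FPKM in fresh cells and 0.405 and 0 FPKM in SMF-treated cells (log2 difference -6.23 ± 0.49, adjusted p = 0.00357). *Fam189b* had 670.0 and 214 FPKM in the fresh and 7.75 and 3.57 FPKM in the SMF-treated libraries (log2 difference -5.91 ± 0.60, adjusted p = 0.00466). *Lamb3*, a laminin chain, had 0.299 and 1.08 FPKM in SMF-treated and 60.0 and 40.03 FPKM in fresh cells (log2 difference -4.93 ± 0.48, adjusted p = 0.00466).

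Some called genes differed more between SMF-treated and control cells than the rest. *Gm10222*, a single-exon pseudogene (chr1:24612407-24612700, minus strand), had 3.42 and 2.68 FPKM in fresh cells and 230.0 and 288 FPKM in SMF-treated cells and 3.66 and 1.87 FPKM in control cells, with an adjusted p of 0.0448 for SMF against control. *Rps20*, a protein of the small ribosomal subunit, had 67.6 and 66.4 FPKM in the fresh and 331 and 423 FPKM in the SMF-treated libraries (log2 difference 2.47 ± 0.24, adjusted p = 0.00466) and 42.3 and 44.9 FPKM in control cells (SMF against control 3.08, adjusted p = 0.0486). *Prickle3*, which faces *Plp2*, had 173 and 184 FPKM in SMF-treated and 32.5 and 45.3 FPKM in fresh cells and 7.86 and 4.88 FPKM in control cells. *Gm29439*, which faces *Cd22*, had 629 and 342 FPKM in fresh and 62.1 and 42.8 FPKM in control cells and was listed at 0 in both SMF libraries. These 4 are the genes that passed the adjusted p between SMF-treated and control cells, where the run also differed, and with the replicate number as a block 0 genes passed.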

How the data were processed

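RNA-Seq values of 6 libraries were used, 3 groups of 2, grouped by sample title. Per the labels and headers, the authors trimmed reads with Trimmomatic 0.36, aligned them with HISAT2 (version not given in the sources used here) and ran StringTie 1.3.5 in stranded mode on GRCm38 with GENCODE M19, restricted to 137767 annotated transcripts. Libraries were made with the SMARTer Stranded Total RNA-Seq Pico kit. The deposited FPKM and coverage of each transcript are the authors' own; FPKM was summed here per gene, and depth is coverage times length (64.4 to 259 Mb). A deposited gene table has 3 columns that match no sample and was not used. Gene types came from GENCODE M21 (54409 identifiers matched, 37 not).

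The values log2(FPKM + 1), for genes averaging 1 FPKM or more in the SMF and unstimulated libraries, entered a linear model in limma 3.58.1 (R 4.3.3) over all 6 libraries, with the variance trend (3 residual degrees of freedom). Calls needed an adjusted p of at most 0.05 over 15100 genes and 2-fold. The study's rule, an unadjusted p of at most 0.05 and 2-fold, was an alternative. The 45 gene lists, the members and the tests were chosen with earlier results of these data known, and lists are described by counts and medians with no list test. Genes listed at 0 in a group enter medians with a difference set by the pseudocount of 1. Named genes were the 15 largest rises and falls (mean of at least 10 FPKM, no overlap), the 4 largest called members of each list (mean of at least 5 FPKM), defining members, and the 5 largest differences from control in each direction; some of these genes are not reported here, and members named beyond these were chosen after their values were seen. Alternatives were pseudocounts, filters, scalings, TPM, variance models, a replicate block, a length correction and leaving out each library. The set of genes with no facing exon was added after the data were seen. In simulated data for this comparison over 15100 genes, 54% of genes changed by a log2 difference of 3 were called and 8% of those changed by 1.5, with 0.0134% of unchanged genes called. Facing exons were found with bedtools 2.31.1; tables and figures used Python 3.11.15, pandas 2.3.3, numpy 2.4.6 and matplotlib 3.10.9. Promoter sequences are RefSeq's for GRCm38.p6.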

Additional observations from a re-analysis of the deposited data

Results flagged for a closer look

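Between SMF-treated and control cells, which share the contrast with unstimulated cells, 4 genes differed at limma's adjusted p, and 0 did with the replicate number as a block. *Gm10222* differed by 6.14 on the log2 scale (adjusted p = 0.0448, both SMF libraries above both control libraries), *Prickle3* by 4.64 (adjusted p = 0.0448), *Rps20* by 3.08 (adjusted p = 0.0486) and *Gm29439* by -5.72 (adjusted p = 0.0448), a difference of log2(FPKM + 1) with both SMF libraries listed at 0. No fold is given for *Gm29439*. *Gm10222* has 1 exon, and *Prickle3* and *Gm29439* face other genes.

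For 3 further genes both SMF libraries lay above, and both control libraries below, both unstimulated libraries, while SMF against control did not pass the adjusted p. *Cd8a* had 192 and 186 FPKM in SMF-treated, 92.5 and 105 FPKM in unstimulated and 35.5 and 60.0 FPKM in control cells (difference from control 2.01, adjusted p = 0.141). *2610020C07Rik*, which faces *Gspt1*, had 34.7 and 35.4, 6.70 and 6.76 and 0.36 and 0.292 FPKM in the same order (difference 4.76, adjusted p = 0.0563). *Snord43*, a small nucleolar RNA, had 13.2 and 31.0 FPKM in SMF-treated and 3.38 and 2.08 FPKM in unstimulated cells and was listed at 0 in both control libraries (difference of log2(FPKM + 1) 4.42, adjusted p = 0.141). In all of these the run of the SMF libraries differs from that of the control libraries, and its part was not tested.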

How the results depend on the processing

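The count of genes called higher, 2120, was 1321 with the protein-coding sum made equal and 3395 at the study's thresholds, and that of genes called lower, 1429, was 415 over protein-coding genes with several exons and none facing, 784 over protein-coding genes with several exons and 2304 at the study's thresholds. The first 2 counts of lower genes come from fits to smaller sets of 6643 and 10140 genes, with p adjusted within each set. Leaving out each library in turn gave 0 to 2030 higher and 0 to 1339 lower; the lone library of a group was then assumed to vary like the other groups. Without either SMF library no call remained (0), although 4144 and 4155 genes had an unadjusted p of at most 0.05, and without unstimulated replicates 1 and 2 the higher counts were 1017 and 1292. All other alternatives gave counts within 1.5 times the reported ones, and every called gene kept its direction in each alternative that tested it.

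Sizes were less stable than directions. Of 45 list medians, 40 moved by more than the spread between replicates with the protein-coding sum made equal, 36 with equal medians, 35 with a pseudocount of 5 and 20 with one of 0.1, and 26 each without unstimulated replicate 1 and 2, 16 without SMF replicate 1 and 19 without replicate 2. Some small values also turned sign. *Cd3e* was 0.21 without SMF replicate 2, in a range of -0.29 to 0.21 over the libraries left out. *Cry2* was -0.20 with the protein-coding sum made equal, -0.17 with equal medians, -0.0006 with a pseudocount of 5, -0.15 with the length trend removed and -0.56 without unstimulated replicate 2 (range -0.56 to 0.74). Among list medians, immediate early genes were 1.12 over genes with none facing, 0.0016 over protein-coding genes with several exons and 0.10 without SMF replicate 1 (range -0.29 to 0.10). Interferon-stimulated genes were -0.72 without SMF replicate 2 (range -0.72 to 1.63), MHC class I presentation 0.07 without SMF replicate 1 (range -0.38 to 0.07), autophagy -0.0036 with the protein-coding sum made equal, and CD4 and regulatory T markers 2.89 at a mean of at least 5 FPKM. The single stromal gene was -0.36 with the protein-coding sum made equal, -0.12 with equal medians, -0.51 without SMF replicate 2 and -0.64 without unstimulated replicate 1 (range -0.64 to 0.92). The cause was not tested.

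Same-numbered control and unstimulated libraries share a run, as read from the header dates, but both SMF libraries come from 1 other run, so the number was not used as a pairing. Replicate differences correlated at 0.028 across genes between SMF-treated and unstimulated cells, 0.096 between control and unstimulated and 0.020 between SMF-treated and control cells. With a replicate block 2015 genes were higher and 1296 lower, of which 1856 and 1201 were among those reported. Added after the data were seen, the block gave 557 higher and 442 lower for control against unstimulated cells, from 647 and 604 without it, and 0 and 0 for SMF-treated against control cells, from 3 and 1, where 3037 genes had an unadjusted limma p of at most 0.05. Depth was lowest in control replicate 1 (64.4 Mb, 22.5% of tested genes listed at 0) and unstimulated replicate 1 (67.4 Mb, 16.6%), so a listing at 0 there carries less weight.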

Other observations

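Other gene groups were not described above. Small nucleolar RNA host genes, which release guide RNAs for ribosome modification from their introns, had 6 of 13 members higher (46.2%, beside 14.0% of all genes tested) and 0 lower. *Snhg4* had 0 and 0.613 FPKM in fresh cells and 27.3 and 33.5 FPKM in SMF-treated cells (log2 difference 4.62 ± 0.52, adjusted p = 0.00535) and 2.68 and 4.69 FPKM in control cells. Among 30 hnRNP and SR proteins, which bind nascent RNA and direct splicing, 14 were higher (46.7%) and 0 lower, with a median of 1.02. *Hnrnpa1* had 112 and 122 FPKM in the fresh and 504 and 548 FPKM in the SMF-treated libraries (log2 difference 2.16 ± 0.20, adjusted p = 0.00445). Its groups did not overlap, and control cells had 204 and 218 FPKM. Of 19 iron-sulfur assembly genes 2 were higher (10.5%, beside 14.0% of all genes tested), *Hspa9* and *Nfs1*, which faces *Romo1*, and 0 lower, and *Hspa9*, the mitochondrial HSP70, had 219.7 and 252 FPKM in SMF-treated and 23 and 41.5 FPKM in fresh cells (log2 difference 2.88 ± 0.34, adjusted p = 0.00589). Among 31 autophagy and lysosome genes *Gabarapl1* and *Wipi2* were higher (6.45%) and *Ctsa*, which faces *Neurl2*, lower (3.23%), shares below the 14.0% and 9.46% of all genes. *Gabarapl1*, which faces *1700101I11Rik*, had 0 and 1.31 FPKM in fresh cells and 33.6 and 22.2 FPKM in SMF-treated cells (log2 difference 4.22 ± 0.55, adjusted p = 0.00696).

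In the circadian clock list *Tef*, which faces *Gm17597*, and *Per1* were higher and *Nr1d1* lower, among 10 genes (20% and 10%, near the shares of all genes). *Nr1d1*, for the repressor REV-ERB alpha, which faces *Thra*, had 21.6 and 11.4 FPKM in the fresh and 1.08 and 1.36 FPKM in the SMF-treated libraries (log2 difference -2.92 ± 0.58, adjusted p = 0.0193) and 15.8 and 6.78 FPKM in control cells. The time of day at which cells were taken is not given in the sources used here. *Mxd3*, which faces *Prelid1*, was the only called gene of 9 in the MYC network (11.1%), at 189 and 192 FPKM in SMF-treated and 68.4 and 87.5 FPKM in fresh cells. Core and linker histone genes were mostly below the filter, with 6 of 67 tested. The 1 called lower (16.7%, beside 9.46% of all genes tested) was *Hist2h2ac*, which faces *Gm44492*. It was listed at 0 in both SMF libraries and passed the level filter through the fresh libraries alone. A count this small is not read as a result about the list.

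By gene type, 45 of 1171 antisense genes were higher and 318 lower, and 21 of 443 lincRNA genes were higher and 99 lower, against 1844 higher and 642 lower of 10394 protein-coding genes. Of 137 small nuclear RNA genes 1 was higher and 23 lower. Variable segments of the T cell receptor had 12 of 67 higher (17.9%) and 3 lower (4.48%), shares not far from the 14.0% and 9.46% of all genes tested, and those of immunoglobulins 0 of 46 higher and 10 lower (21.7%). *Trbj2-4*, a joining segment of the beta chain, was listed at 0 in all unstimulated and control libraries and at 13.9 and 46.7 FPKM in the SMF libraries. *Lst1*, a gene of myeloid cells, had 22.7 and 8.28 FPKM in unstimulated and 38.5 and 19.6 FPKM in control cells and was listed at 0 in both SMF libraries.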
